A study of Rattus norvegicus with 12 samples.

Results

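The genes described here encode the complement and coagulation factors of blood plasma, together with the inhibitors that hold both systems in check. They were taken as a list of 50 symbols, from C1Q to histidine-rich glycoprotein, and looked up by exact symbol in a table of rat liver RNA. The list was drawn up by function, but with earlier results of these data known. The table gives values for 14691 genes, and 45 of the 50 symbols were found, 24 of complement and 21 of coagulation, the contact system and fibrinolysis. Levels are in RPKM, reads per kilobase of transcript scaled to the size of the library, and the mean of each of the 45 was 1 RPKM or more. C4A, C5, C7, C8B and F9 were not found by symbol and are not analysed here. The row named C4B is described in the table as complement component 4a, so which of the 2 C4 genes it measures is uncertain.

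The animals were male Sprague Dawley rats aged 4 to 5 months. They carried a biliary fistula or a sham fistula for 24 h before partial hepatectomy (PH), and whole liver was taken at 0, 4, 12 or 24 h after PH. There were 3 arms, with titles beginning Cont, BA and BF, and 1 column of values for each arm and time, 12 in all. Cont rats had the sham fistula. The BA and BF rats both had a fistula draining bile to the outside, and in either BA or BF the bile acid sodium taurocholate was infused into the duodenum. The study places this infusion 12 h before PH, so the infused arm had already received it at 0 h. The sample descriptions give the infusion to BF, whereas the abbreviations in the study's methods (BF for fistula, BA for bile acid infusion) would give it to BA. Which arm was infused is therefore uncertain, and BA and BF are used below only as the titles of the columns. All rats, sham rats included, carried a duodenal catheter with saline infusion. Each column combines 2 sequencing runs, 1 on a single rat and 1 on pooled RNA of 3 rats, so no spread between rats can be computed.

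Complement is a cascade of plasma proteins that tags and lyses microbes. It starts on antibody (classical pathway), on sugars (lectin pathway) or spontaneously on surfaces (alternative pathway), and all routes meet at C3 and end in the membrane attack complex. Coagulation is a second protease cascade that ends in thrombin and a fibrin clot, with antithrombin and protein C as brakes and plasmin as the enzyme that dissolves the clot. Hepatocytes secrete most of these proteins, whereas C1q and properdin come largely from macrophages and other myeloid cells. Several of the liver genes are acute phase genes, that is, their transcription follows inflammation and interleukin-6.

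Differences between times were estimated over the 3 arms, and differences between arms over the 4 times, in 1 additive limma fit on log2(RPKM + 1) across the 8459 genes whose mean reached 1 RPKM. With 1 column per arm and time, the p-values (Benjamini-Hochberg adjusted) measure how alike a difference was in the 3 arms or at the 4 times, not the spread between rats. A gene is said to have risen or fallen where the adjusted p was below 0.05. Ratios of single columns are descriptions with no test. The 10 most abundant genes took 29.4% to 53.2% of a column's total RPKM, and the sums of the hepatocyte markers ranged from 83725 to 351032 RPKM over 6 of 8 markers found. The sum was lowest at 12 h in each arm, at 89152 RPKM in Cont, 83725 in BA and 87713 in BF. Albumin (ALB) and AHSG were also lowest at 12 h in each arm. TTR, TF and HNF4A were so in some arms only, and SERPINA1 was lowest at 0 h in each arm. The part of this in the members' values was not tested. Albumin alone was 30.9% of the BA column at 4 h and at most 13.4% of any other column. In the BF column at 12 h, 6 pancreatic acinar genes summed to 126 RPKM, against at most 23.0 elsewhere. Most of the sum elsewhere was CELA1, at 22.5 RPKM in Cont at 0 h and 6.03 in BF at 12 h. CTRB1 was at 84.7 RPKM in BF at 12 h and at most 0.57 elsewhere. In whole liver, fewer cells of a type and less RNA per cell cannot be told apart.

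These genes were among the most abundant of the liver. Levels are compared in RPKM, which is per transcript length. The row named KNG1, after the kininogen precursor of bradykinin, was highest. Its mean was 10022 RPKM over the 12 columns, rank 13 of 8459. Which kininogen it measures is uncertain. C3, the point where the complement pathways meet, had a mean of 4594 RPKM and rank 23. The cell adhesion and complement-binding protein VTN (vitronectin) followed with 3250.1 RPKM, antithrombin (SERPINC1) with 2153 and C9, which forms the pore of the attack complex, with 1779.9. Prothrombin (F2) was at 1414 RPKM. At the other end stood tissue factor (F3), the trigger of clotting, at 2.09 RPKM and the cofactor F8 at 1.56, both made largely outside hepatocytes. Tissue factor pathway inhibitor (TFPI) was at 7.74 RPKM and CFD (adipsin) at 9.99. The next lowest was CFP (properdin) at 29.3 RPKM. Neighbours such as C4BPA (1191 RPKM), C4BPB (1196), CFB (1218) and PLG (1153) had ranges over the 12 columns that overlapped.

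Together the 45 genes made up 3.22% of the total RPKM in Cont at 0 h, 5.71% in BA and 5.83% in BF. At 24 h the shares were 4.67%, 5.34% and 5.37%. Without KNG1 the shares at 0 h were 3.08% in Cont and 4.21% in BA and 4.20% in BF, and at 24 h they were 3.46%, 3.41% and 3.62%. The 3 arms thus lay closer together a day after PH than at the time of PH.

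**Figure D1:**
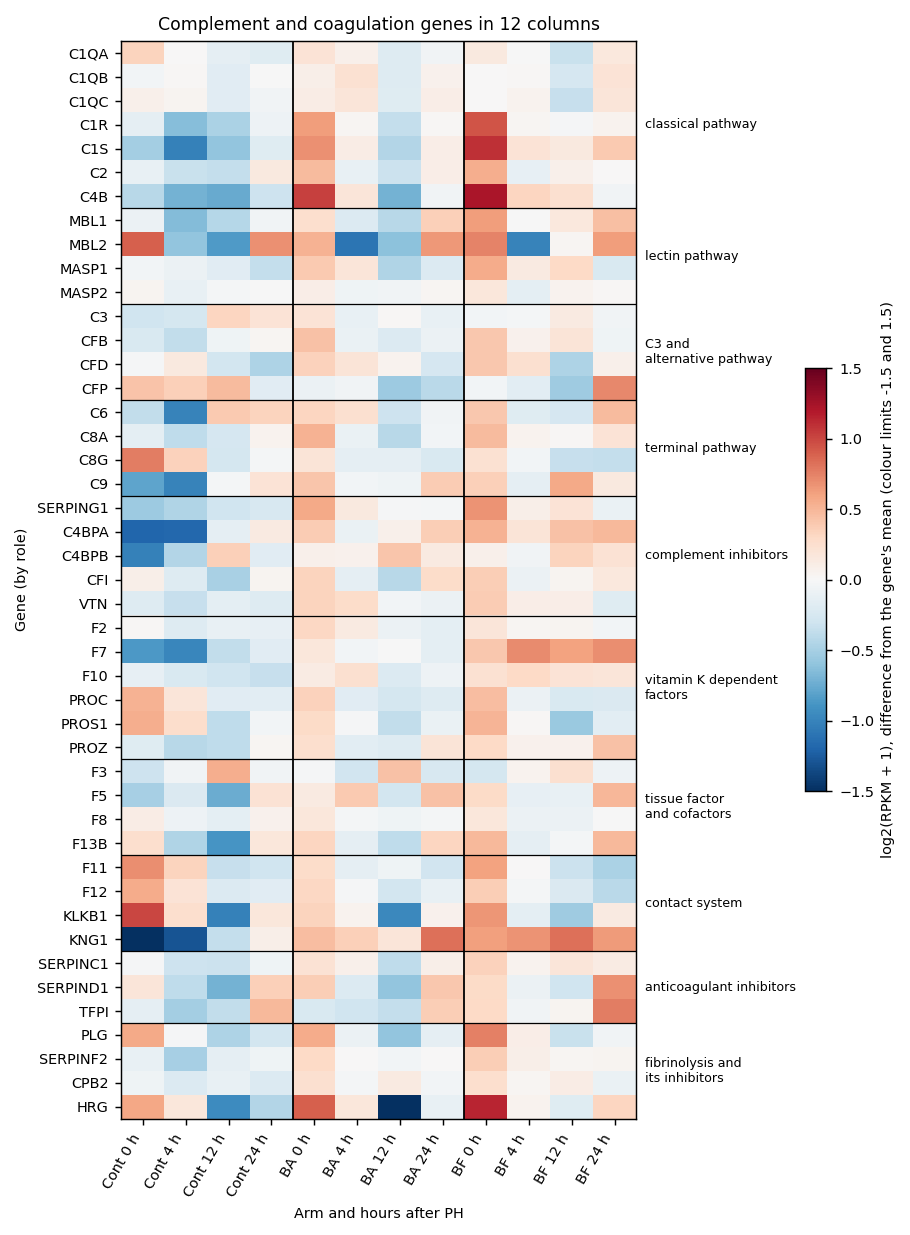
Levels of the 45 complement and coagulation genes (rows, by role) in the 12 columns (arm and hours after PH), as log2(RPKM + 1) minus the gene's own mean over the columns, with red above and blue below the mean. C1S, C4B, C4BPA and KNG1 are blue in Cont at 0 h and red in BA and BF at 0 h, whereas HRG and KLKB1 are bluest at 12 h in every arm.

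At 12 h against 0 h, 21 of the 45 members fell (46.7%), where 22.5% of all genes fell, and 2 members rose (9.03% of all genes). HRG, KLKB1, MBL2, PLG and C4B fell by at least 2-fold, 5 of 45 beside 5.66% of all genes, and no member rose by 2-fold (1.57% of all genes). The median difference was -0.35 on the log2 scale over the members and -0.12 over all genes. Between single columns, the median log2 ratio over the members was -0.23 in Cont, -0.46 in BA and -0.41 in BF. Over all genes it was -0.16, -0.13 and -0.054, so the members lay nearest to all genes in Cont. This difference between arms was not tested. With columns rescaled to the total without the 10 most abundant genes, 13 members fell and only HRG and KLKB1 did so by 2-fold. When each arm was left out in turn, 10 to 11 members fell.

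HRG, a plasma protein that binds heparin, plasminogen and zinc, had the largest fall of the members. It was at 540.3, 407, 187 and 268 RPKM in Cont at 0, 4, 12 and 24 h. In BA it was at 674, 408, 115 and 335 RPKM and in BF at 802, 374, 319 and 452 RPKM at the same times. Every arm was lowest at 12 h, and no value at 12 or 24 h reached any of the 3 values at 0 h. The log2 difference at 12 h was -1.80 ± 0.27 (SE), adjusted p = 0.0019 (limma). At 12 h BF exceeded BA by 2.78-fold, with Cont between the fistula arms.

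KLKB1, plasma prekallikrein, which cuts kininogen to bradykinin, was likewise lowest at 12 h. It was at 309, 183, 75.5 and 173 RPKM in Cont at 0, 4, 12 and 24 h, at 194, 159.8, 78.2 and 161 in BA and at 245, 139, 106 and 168 in BF. The 12 h values lay below all values of the other times, and the 24 h values of the arms were within 161 to 173 RPKM. The difference at 12 h was -1.51 ± 0.18 (SE), adjusted p = 8.4e-04 and at 24 h -0.54 ± 0.18 (SE), adjusted p = 0.039 (limma).

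PLG, plasminogen, is the precursor of the clot-dissolving enzyme plasmin. It was at 1634, 1089.8, 801 and 913 RPKM in Cont at 0, 4, 12 and 24 h, at 1624, 1037, 732 and 1004 in BA and at 1872, 1187, 874 and 1069 in BF. The 3 arms lay close together at every time, and each had its highest value at 0 h and its lowest at 12 h. The log2 difference was -0.63 ± 0.11 (SE), adjusted p = 0.0024 at 4 h, -1.09 ± 0.11 (SE), adjusted p = 4.4e-04 at 12 h and -0.78 ± 0.11 (SE), adjusted p = 0.0013 at 24 h (limma).

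MBL2, a mannose-binding lectin that starts complement on microbial sugars, was low at 4 and 12 h. In Cont it was at 245, 87.0, 72.6 and 212 RPKM at 0, 4, 12 and 24 h, in BA at 189.8, 61.0, 86.0 and 206 and in BF at 221, 65.2, 134 and 204. All values at 4 and 12 h lay below all values at 0 and 24 h. The difference was -1.62 ± 0.21 (SE), adjusted p = 6.7e-04 at 4 h (limma), -1.20 at 12 h and -0.069 at 24 h (adjusted p = 0.82). At 4 h MBL2 was the 1 member that fell by 2-fold, beside 6.21% of all genes, and no member rose by as much (3.58% of all genes).

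**Figure D2:**
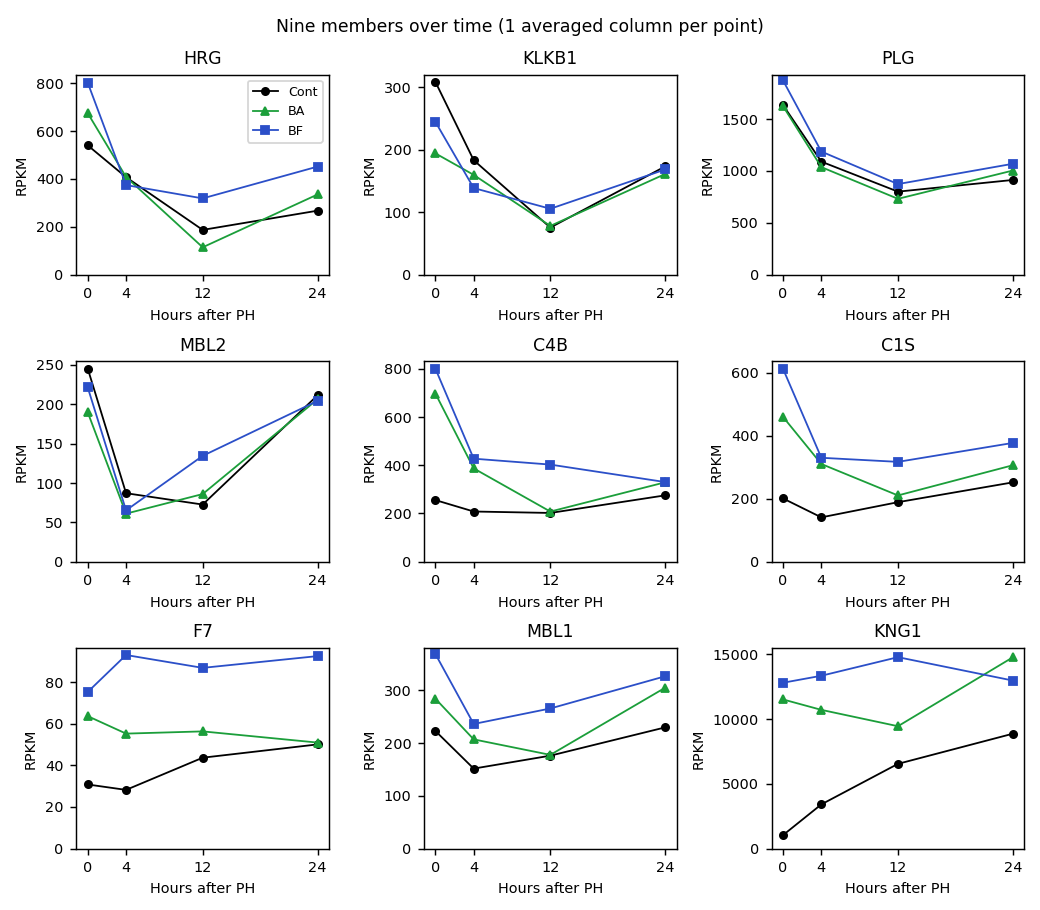
RPKM (vertical axis, from 0) against hours after PH (horizontal axis) for 9 members, with Cont in black circles, BA in green triangles and BF in blue squares, 1 averaged column per point and no error bars. HRG, KLKB1 and PLG are lowest at 12 h in each arm, MBL2 is low at 4 and 12 h, and C4B, C1S and KNG1 differ between arms most at 0 h.

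The start regions of PLG, KLKB1 and MBL2, which fell, and of C4BPA and C4BPB, the linked genes of the C4b-binding protein that were higher in the fistula arms at 0 h, are shown to set the sequence beside the courses. Each is the 250 bases before the annotated start in RefSeq (GRCr8), read 5′ to 3′ on the gene's strand, with the bases of a matched motif in capitals.
PLG (chr1:50915407-50915656, strand -): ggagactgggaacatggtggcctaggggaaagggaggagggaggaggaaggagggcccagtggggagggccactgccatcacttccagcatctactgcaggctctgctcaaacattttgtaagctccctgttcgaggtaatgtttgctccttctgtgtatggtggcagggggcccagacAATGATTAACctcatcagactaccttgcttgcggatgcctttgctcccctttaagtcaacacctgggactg
KLKB1 (chr16:53690976-53691225, strand +): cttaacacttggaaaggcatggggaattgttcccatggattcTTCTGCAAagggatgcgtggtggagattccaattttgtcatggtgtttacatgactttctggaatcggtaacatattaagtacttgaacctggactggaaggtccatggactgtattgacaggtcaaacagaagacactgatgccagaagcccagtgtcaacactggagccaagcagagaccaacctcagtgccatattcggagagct
MBL2 (chr1:237430793-237431042, strand +): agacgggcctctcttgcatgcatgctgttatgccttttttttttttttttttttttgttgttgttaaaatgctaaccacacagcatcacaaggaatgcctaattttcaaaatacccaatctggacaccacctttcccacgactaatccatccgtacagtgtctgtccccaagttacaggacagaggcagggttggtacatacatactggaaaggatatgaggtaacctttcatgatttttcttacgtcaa
C4BPA (chr13:44663472-44663721, strand -): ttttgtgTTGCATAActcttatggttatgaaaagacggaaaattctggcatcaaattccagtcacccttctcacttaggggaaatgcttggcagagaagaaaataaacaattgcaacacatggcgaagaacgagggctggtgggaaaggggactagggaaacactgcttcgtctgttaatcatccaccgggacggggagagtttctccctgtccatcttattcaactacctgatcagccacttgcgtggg
C4BPB (chr13:44683782-44684031, strand -): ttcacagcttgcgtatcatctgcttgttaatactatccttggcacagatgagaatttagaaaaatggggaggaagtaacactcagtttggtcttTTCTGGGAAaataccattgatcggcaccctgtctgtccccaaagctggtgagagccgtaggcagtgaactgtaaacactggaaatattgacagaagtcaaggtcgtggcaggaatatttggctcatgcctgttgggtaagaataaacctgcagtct

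Letter matches were searched on both strands in the same window of the 32 members with a promoter in the table and of all 33469 promoters. The HNF1 motif, bound by a hepatocyte factor, was found in PLG as AATGATTAAC, starting 71 bases before the gene's start, and in F13B as AATTATTAAC, 2 of 32 members beside 0.323% of all promoters. The C/EBP motif TTGCNNAA, of factors that drive acute phase genes, was in 9 of 32 members (C6, C1R, C8A, C3, KNG1, C4BPA, SERPINC1, KLKB1 and PROZ) and in 9.22% of all promoters. The STAT3 motif TTCNNNGAA was in 5 of 32 (C8A, C1QA, VTN, PROS1 and C4BPB) and in 7.67% of all, and the NF-kB motif in F10 alone of the 32, as GGAAATCCCC, beside 1.3%. The MBL2 window held none of these letters. Members with a match included genes that fell (PLG, KLKB1, PROS1), 1 that rose at 12 h (C4BPB) and genes that passed no test over time (VTN, SERPINC1).

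At 4 h against 0 h, 17 members fell and 0 rose in the limma fit, with 23 lower and 0 higher at an unadjusted p below 0.05. The share that fell, 37.8%, was near that of all genes (32.4%), whereas 12.9% of all genes rose. It depended on the scale, with 6 members lower after the columns were rescaled to the same median gene and 10 without the BA column at 4 h. At 24 h against 0 h, 10 members fell (22.2% beside 5.54% of all genes), a count that was 1 without the BF arm and 6 without the Cont arm. TFPI alone rose, where 30.6% of all genes rose. None of the 45 passed the test with a 2-fold difference at 24 h (limma; at an unadjusted p below 0.05, of any size, 13 were lower and 2 higher), beside 1.28% of all genes lower and 5.26% higher. The median of all genes stood at 0.21 on the log2 scale at 24 h and that of the members at -0.16. After the columns were rescaled to the same median gene, 25 members fell at 24 h, 4 of them by 2-fold, and TFPI no longer passed.

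**Figure D3:**
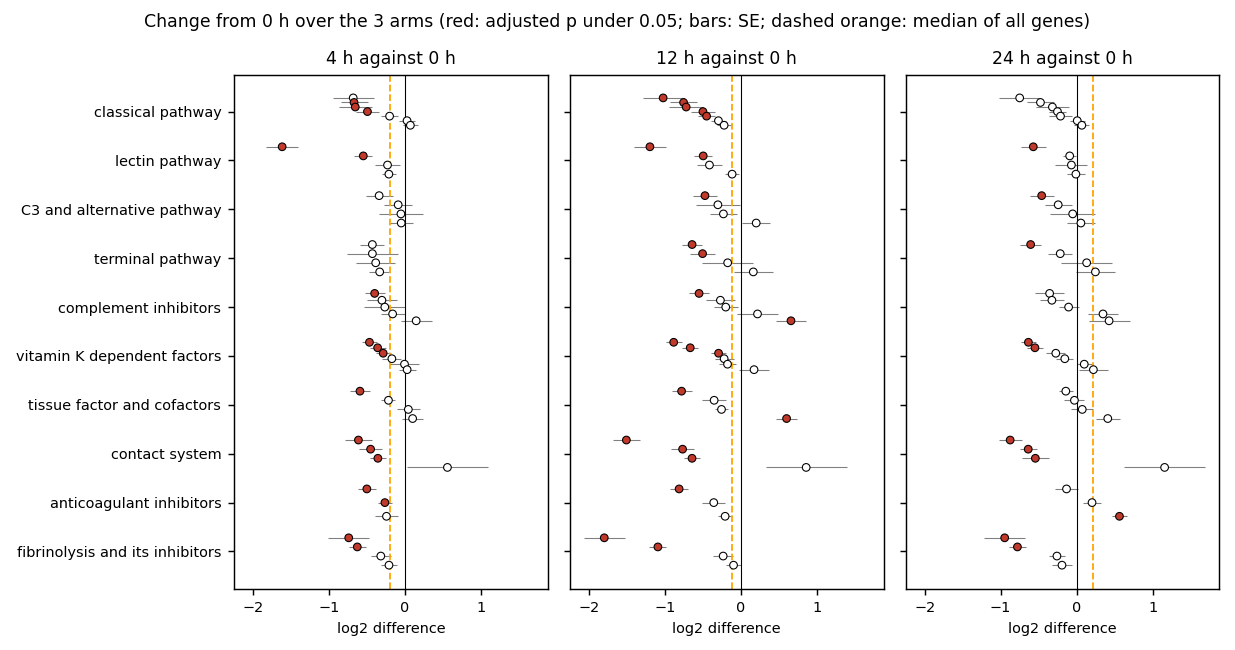
Log2 difference from 0 h (horizontal axis, limma fit over the 3 arms) of each member by role (vertical axis) at 4, 12 and 24 h, with bars for the SE, red points for an adjusted p below 0.05 and a dashed line at the median of all 8459 genes. At 12 h most red points lie left of 0, with KLKB1 and HRG farthest, and C4BPB and F3 are the red points to the right.

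Of the 45 genes, 15 had their highest value at 0 h in all 3 arms (33.3%), where 11.8% of all genes did. These were MASP1, MASP2, C8G, CFI, F2, PROC, PROS1, F8, F11, F12, KLKB1, SERPINC1, PLG, CPB2 and HRG, mostly genes of clotting, its brakes and fibrinolysis. The lowest value fell at 12 h in all 3 arms for 8 genes (17.8% beside 9.73% of all genes), namely C1QB, C1QC, PROC, PROS1, KLKB1, SERPIND1, PLG and HRG. By role, those that fell at 12 h were 5 of 7 genes of the classical pathway, 3 of 4 of the contact system, 2 of 4 each of the lectin pathway, the terminal pathway and fibrinolysis, and 3 of 6 vitamin K dependent factors. In C3 with the alternative pathway 1 of 4 fell, and of the complement inhibitors 1 of 5. Of tissue factor and the cofactors 1 of 4 fell, and of the anticoagulant inhibitors 1 of 3. Differences between roles were not tested.

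In the classical pathway, the C1 proteases C1R and C1S and their substrates C2 and C4B fell at 12 h together with C1QA. Between single columns, the log2 ratio of 12 h to 0 h of C1S was -0.088 in Cont, -1.12 in BA and -0.95 in BF. For C1R it was -0.33, -0.98 and -0.96, for C2 -0.24, -0.79 and -0.47, and for C1QA -0.47, -0.39 and -0.49. Over the 24 complement genes the median ratio was -0.12, -0.53 and -0.46, beside -0.16, -0.13 and -0.054 over all genes. C1S was at 201, 141, 189 and 252 RPKM in Cont at 0, 4, 12 and 24 h, at 459.9, 310.2, 210.4 and 306 in BA and at 613, 330.0, 317 and 377 in BF. The fistula arms were above Cont at every time, and their values at 0 h were above all others. C4B was at 256, 208, 202 and 275 RPKM in Cont, at 698, 387, 208 and 329.6 in BA and at 801, 428, 403 and 330.4 in BF. Its log2 difference at 12 h, -1.02 ± 0.27 (SE), adjusted p = 0.02 (limma), came mainly from the fistula arms, with -1.74 in BA, -0.99 in BF and -0.34 in Cont. Without the BA arm the difference was -0.66 and without the BF arm -1.04, neither past the test (adjusted p = 0.17 and 0.096, limma).

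C1R was highest of this pathway by its mean. It was at 339, 239, 269.9 and 355 RPKM in Cont, 577, 380.2, 293 and 379.5 in BA and 720.0, 382, 370.4 and 388 in BF, with the fistula arms above Cont at each time and most so at 0 h. The difference at 12 h was -0.75 ± 0.18 (SE), adjusted p = 0.013 (limma). C2 ranged from 88.4 to 166 RPKM. Of the subunits of C1q, which recognises antibody, C1QA fell and the others passed no test. C1QB ranged from 60.1 to 84.3 RPKM over the 12 columns, C1QC from 64.6 to 93.7 and C1QA from 56.2 to 90.1. The sum of 8 Kupffer cell and macrophage markers ranged from 208 RPKM (Cont at 12 h) to 335 (Cont at 0 h), and was lowest at 12 h in each arm, as were C1QB and C1QC. Their part in the C1q values was not tested.

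In the lectin pathway MBL1, the second mannose-binding lectin, fell by 0.55 at 4 h and 0.50 at 12 h on the log2 scale (adjusted p = 0.006 and 0.015, limma). The protease MASP1, with a range of 52.2 to 106 RPKM, fell at 24 h (-0.57 ± 0.16 (SE), adjusted p = 0.025, limma). MASP2, which cleaves C4 and C2, stayed within 103 to 129 RPKM, the narrowest span of all members by ratio.

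C3 was at 3715, 3808, 5708 and 5241 RPKM in Cont at 0, 4, 12 and 24 h, at 5273, 4209.6, 4633 and 4234 in BA and at 4432, 4482, 4997 and 4398 in BF. Cont went from the lowest value of the 12 at 0 h to the highest at 12 h, and neither time nor arm passed the test. Of the alternative pathway, CFB ranged from 928 to 1628 RPKM. CFD, at a level of 6.79 to 13.3 RPKM, fell at 12 h (-0.47, adjusted p = 0.047, limma) and at 24 h (-0.46, adjusted p = 0.046, limma). CFP (properdin), which stabilises the C3 convertase, was at 47.1 RPKM in BF at 24 h and between 19.0 and 39.5 RPKM in the other columns. The macrophage markers summed to 320.2 RPKM in that column, against 288 in Cont and 303 in BA at 24 h, and their part in this value was not tested.

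Of the terminal components, C8G and C8A, subunits of C8, fell at 12 h. C8G was at 316, 237, 155 and 181 RPKM in Cont, at 213, 169.7, 169.6 and 158 in BA and at 218, 181, 146 and 144 in BF. It fell at 12 h by 0.64 and at 24 h by 0.61 on the log2 scale (adjusted p = 0.0084 and 0.0091, limma), and unlike most members it was higher in Cont than in both fistula arms at 0 h. C8A ranged from 379 to 727 RPKM. C9 was at 985, 849, 1668 and 1961 RPKM in Cont, at 2274, 1661, 1633 and 2211 in BA and at 2176, 1546, 2516 and 1878 in BF, so that Cont was lowest at 0 and 4 h and within the range of the fistula arms at 12 and 24 h.

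Among the inhibitors of complement, C4BPB rose at 12 h (0.66 ± 0.20 (SE), adjusted p = 0.036, limma). It was at 573, 853, 1491 and 1035 RPKM in Cont, 1223, 1213, 1547 and 1268 in BA and 1222, 1121, 1465 and 1343 in BF, with Cont far below the fistula arms at 0 h and within their range at 12 h. Without the Cont arm or without the BF arm, 0 members rose at 12 h. C4BPA, the other chain of the C4b-binding protein, was chosen for display after its values were seen. It was at 491, 493, 1014 and 1228 RPKM in Cont, 1449, 1044, 1174 and 1441 in BA and 1604, 1272, 1513 and 1567 in BF, with no test passed. VTN was at 2808, 2531, 2904 and 2807 RPKM in Cont, 4043, 3872, 3124 and 3016 in BA and 4169.8, 3436, 3449 and 2841 in BF, the highest of this role and with no test passed. CFI, which degrades C3b and C4b, fell at 4 and 12 h (log2 differences of -0.40 and -0.55, adjusted p = 0.034 and 0.014, limma), within a span of 495 to 894 RPKM. SERPING1, the C1 inhibitor, ranged from 530.2 to 1234 RPKM.

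Among the vitamin K dependent proteins, PROC and PROS1, protein C and its cofactor protein S, fell at all 3 times. For PROC the log2 differences were -0.47, -0.67 and -0.63 at 4, 12 and 24 h (adjusted p = 0.0059, 0.0022 and 0.0023, limma), and for PROS1 -0.36, -0.88 and -0.55 (adjusted p = 0.02, 8.5e-04 and 0.0045). PROC ranged from 188 to 326 RPKM and PROS1 from 57.2 to 125. Of the procoagulant enzymes, F2 was at 1419, 1230.1, 1301 and 1288 RPKM in Cont, 1741, 1549, 1328 and 1266 in BA and 1596, 1442, 1445 and 1367 in BF, a narrow span with no test passed over time. F10 ranged from 261 to 408 RPKM, also with no test passed over time. PROZ, which helps to inhibit factor Xa, fell by 0.29 at 4 h and 0.29 at 12 h (adjusted p = 0.037 and 0.046, limma).

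Tissue factor (F3) rose at 12 h, by 0.60 on the log2(RPKM + 1) scale (adjusted p = 0.013, limma). Without the Cont arm or without the BF arm, neither F3 nor any other member rose at 12 h. F3 had a mean of only 2.09 RPKM, close to the 1 RPKM added. Its values at 0 and 12 h were 1.45 and 3.44 RPKM in Cont, 2.01 and 3.12 in BA and 1.54 and 2.58 in BF. F13B, the carrier subunit of the clot-linking factor XIII, was at 197, 120.4, 89.3 and 186 RPKM in Cont, 206, 150.0, 127 and 206 in BA and 232, 151, 163 and 232 in BF, with lower values at 4 and 12 h than at 0 or 24 h in each arm. Its differences were -0.59, -0.78 and -0.029 (adjusted p = 0.0063, 0.0032 and 0.88, limma). The cofactors F5 and F8 ranged from 50.9 to 122 and from 1.30 to 1.88 RPKM and passed no test over time.

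The proteases of the contact system fell at all 3 times. For F11 the log2 differences were -0.45, -0.77 and -0.88 at 4, 12 and 24 h and for F12 -0.36, -0.64 and -0.64, with adjusted p from 0.0031 to 0.036 (limma). F11 ranged from 58.6 to 133 RPKM and F12 from 168 to 329. KNG1, which circulates bound to prekallikrein and F11, was at 1036, 3411, 6544 and 8875 RPKM in Cont, at 11521, 10716, 9452 and 14781 in BA and at 12811, 13351, 14788 and 12979 in BF. Cont at 0 h was thus far below every other column, and Cont stayed below both fistula arms at each time. No difference of KNG1 passed the test (adjusted p = 0.12 at 24 h and 0.099 for BF against Cont, limma). Rat kininogen genes are close copies, and RefSeq lists KNG1 both as a current symbol and as an older symbol of another kininogen gene. The row named KNG1L1 went from 282 to 7073 RPKM in Cont between 0 and 24 h and stood at 9716 in BA and 9379.5 in BF at 0 h, whereas KNG2 stayed within 399 to 562 RPKM. Which kininogen the KNG1 value measures is therefore uncertain.

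Among the serpins that inhibit clotting, SERPINC1 was at 2100.4, 1721, 1702 and 2044 RPKM in Cont, 2479, 2240.4, 1632 and 2264 in BA and 2715, 2205, 2423 and 2317 in BF and passed no test over time. SERPIND1 (heparin cofactor II) fell at 4 and 12 h by 0.50 and 0.81 on the log2 scale (adjusted p = 0.0071 and 0.0015, limma) and stood at 735, 753 and 915 RPKM in Cont, BA and BF at 24 h, above each arm's value at 0 h. TFPI, which blocks the tissue factor complex, fell at 4 h (-0.27, adjusted p = 0.0482) and rose at 24 h (0.56 ± 0.096 (SE), adjusted p = 0.003, limma), from 6.65, 6.18 and 9.40 to 10.8, 9.89 and 13.4 RPKM. Of the inhibitors of fibrinolysis, SERPINF2 (antiplasmin) ranged from 377 to 684 RPKM and CPB2, which protects fibrin from plasmin, from 485 to 669, with no test passed over time.

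At the time of PH itself, a day after the fistula operation, many members were higher in the fistula arms than in Cont. By the study's account, 1 of the fistula arms had by then received bile acid. At 0 h, 35 of 45 members were higher in BF than in Cont and 34 were higher in BA than in Cont, beside 25.9% and 35.1% of all genes. The median log2 ratio was 0.37 in BF and 0.31 in BA, while it was -0.18 and -0.097 over all genes. At least 2-fold higher than Cont were 9 members in BF (20% beside 1.73% of all genes) and 8 in BA (17.8% beside 1.87%). None was 2-fold lower, where 2.16% of all genes were in BF and 2.15% in BA. Both comparisons share the Cont column, and with 1 column on each side they have no replicate check.

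The members past 2-fold in both fistula arms were KNG1, C4BPA, C4B, C1S, SERPING1, C9, C4BPB and F7, and C1R passed in BF only. KNG1 was 12.4-fold higher in BF and 11.1-fold in BA. C4BPA, which recruits the protease that destroys C4b, was 3.27-fold and 2.95-fold higher. C4B was 3.13-fold and 2.73-fold higher, and C1S 3.05-fold and 2.29-fold. SERPING1, the inhibitor of C1S and C1R, was at 530.2, 566, 626 and 653 RPKM in Cont at 0, 4, 12 and 24 h, at 1141, 855, 762 and 759 in BA and at 1234, 819, 893 and 718 in BF, highest in both fistula arms at 0 h. By median the complement genes stood higher than the clotting genes, with no test, at a log2 ratio to Cont at 0 h of 0.61 over 24 genes in BF against 0.24 over 21 genes, and 0.52 against 0.24 in BA. Lowest relative to Cont at 0 h in BF were C8G, CFP and KLKB1, with log2 ratios of -0.53, -0.47 and -0.33. In BA the lowest was KLKB1, at 194 RPKM against 309 in Cont. The neutrophil markers S100A8 and S100A9 moved with this pattern. They were at 0.63 and 2.25 RPKM in Cont at 0 h, 9.28 and 12.6 in BA and 8.58 and 13.5 in BF. LY6C of the same marker list did not, at 4.7 RPKM in Cont, 4.81 in BA and 2.93 in BF at 0 h. ITGAM was at 0.7, 1.22 and 0.8 RPKM. The summed level of the 5 neutrophil and monocyte markers ranged over the columns from 8.29 to 67.6 RPKM, MPO was below 1 RPKM in every column, and their part in the members' values was not tested.

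**Figure D4:**
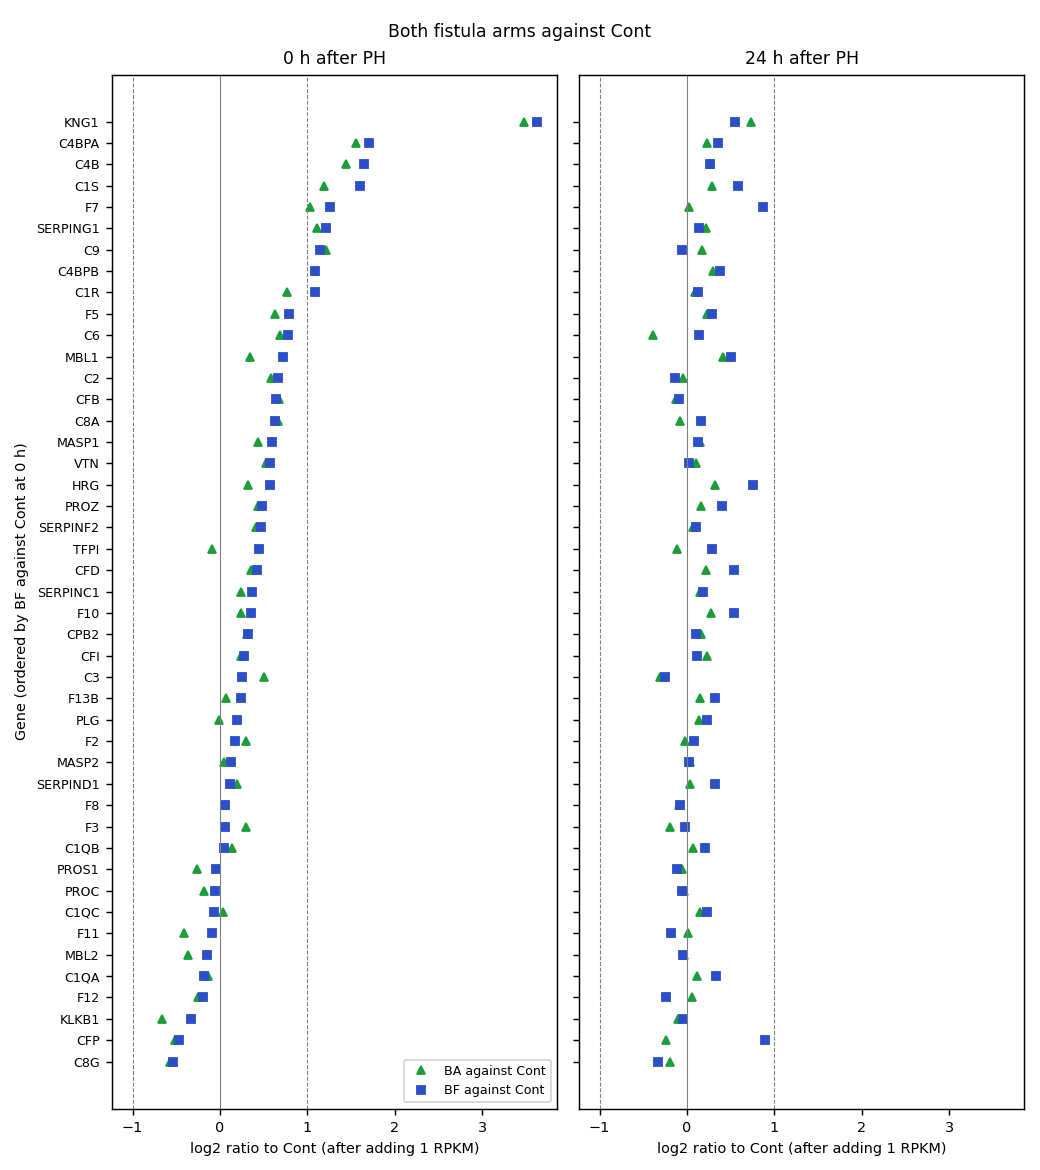
Log2 ratio to Cont after adding 1 RPKM (horizontal axis) of each member (vertical axis, ordered by BF at 0 h) in BA (green triangles) and BF (blue squares) at 0 h and at 24 h after PH, 1 column on each side and no error bars, with dashed lines at 2-fold. At 0 h BF spreads from C8G on the left to KNG1 on the right, and BA from KLKB1 to KNG1. At 24 h no member passes a dashed line.

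At 24 h after PH, 32 of 45 members in BF and 30 in BA were still above Cont, beside 28.4% and 22.6% of all genes. No member was 2-fold higher or lower than Cont in either fistula arm, where 0.768% of all genes were higher and 1.31% lower in BF, and 0.721% higher and 1.32% lower in BA. The median log2 ratio over the members was 0.14 in BF and 0.096 in BA, and over all genes it was -0.11 and -0.17. CFP and F7 were highest in BF, with log2 ratios of 0.89 and 0.87. KNG1 was highest in BA, with a log2 ratio of 0.74, against 3.47 at 0 h. The ratio of C4BPA in BF went from 1.71 to 0.35, that of C4B from 1.64 to 0.26 and that of C9 from 1.14 to -0.062. The difference between the ratios at 0 and 24 h was not tested, since each has 1 column a side.

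The courses within each arm are given without a test. Between 0 and 12 h, KNG1, C4BPB and C4BPA were at least 2-fold higher in Cont (3 of 45 beside 3.96% of all genes) and 7 members were 2-fold lower (9.94% of all genes), namely KLKB1, MBL2, HRG, F13B, F11, PLG and C8G. In BA no member was 2-fold higher (1.29% of all genes), and HRG, C4B, KLKB1, PLG, MBL2 and C1S were 2-fold lower (6 of 45 beside 5.77%). In BF none was 2-fold higher (2.46% of all genes), and HRG, KLKB1, PLG and PROS1 were 2-fold lower (4 of 45 beside 5.15%). As deposited, HRG, KLKB1 and PLG were 2-fold lower at 12 h in each of the 3 arms, whereas C4B and C1S were so only in BA, with C4B at a log2 ratio of -0.99 in BF. With columns rescaled to the total without the 10 most abundant genes, 3 members in Cont, 3 in BA and 1 in BF were 2-fold lower, so these 3 genes were not all 2-fold lower in BF on that scale.

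Over the 4 times, 23 members were higher in BF than in Cont at every time (51.1% beside 5.6% of all genes) and 19 were higher in BA than in Cont at every time (42.2% beside 3.42%). In the limma fit of BF against Cont, F7, C1S, MBL1 and PROZ were higher (4 of 45 beside 0.319% of all genes) and 0 were lower (0.485% of all genes), with 22 members higher and 1 lower at an unadjusted p below 0.05. F7, the protease that tissue factor activates, differed most of these 4, by 1.20 ± 0.17 (SE), adjusted p = 0.023 on the log2 scale. It was at 30.8, 28.2, 43.6 and 50.0 RPKM in Cont, 63.6, 55.2, 56.3 and 50.9 in BA and 75.2, 93.0, 86.8 and 92.5 in BF, and no BF value overlapped a Cont value. MBL1 was at 223, 152, 176 and 229.9 RPKM in Cont, 284, 207, 178 and 305 in BA and 369, 236, 266 and 327 in BF, with a difference of 0.61 ± 0.10 (SE), adjusted p = 0.041. PROZ was at 159, 136, 138 and 186 RPKM in Cont, 216, 162, 158 and 207 in BA and 223, 190.0, 189 and 246 in BF, and its difference was 0.45 ± 0.084 (SE), adjusted p = 0.0498. For C1S the difference was 1.04 ± 0.19 (SE), adjusted p = 0.0498. None of the 4 passed when any one time was left out, when the BF column at 12 h was left out (adjusted p = 0.062 for F7) or without a filter on low values.

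BA against Cont gave 0 members higher or lower in the limma fit (beside 0% and 0.0709% of all genes), with 17 higher and 1 lower at an unadjusted p below 0.05. The differences closest to the threshold were those of C1S (0.69 ± 0.19 (SE), adjusted p = 0.12) and F5 (0.48 ± 0.13 (SE), adjusted p = 0.12). BF against BA likewise gave 0 in either direction (beside 0.0118% and 0% of all genes), with 4 higher and 0 lower at an unadjusted p below 0.05. The median log2 difference of the members between BF and BA was 0.091, with F7 at 0.61 ± 0.17 (SE), adjusted p = 0.45. Of the 4 times, the median ratio between these arms was largest at 12 h, with 34 of 45 higher in BF and a median log2 ratio of 0.25 against -0.014 over all genes. HRG (1.47), C4B (0.95) and MASP1 (0.75) were among them, in the same BF column that carried the pancreatic genes, whose part in these values was not tested.

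Other genes of these pathways were read from a list of 54 symbols, of which 42 were found and 35 had a mean of 1 RPKM or more. At 4 h 8 rose and 7 fell, at 12 h 8 rose and 8 fell, and at 24 h 6 rose and 5 fell (limma). As shares of the 35, 22.9% rose and 20.0% fell at 4 h, 22.9% rose and 22.9% fell at 12 h, and 17.1% rose and 14.3% fell at 24 h. Over all genes the shares that rose and fell were 12.9% and 32.4% at 4 h, 9.03% and 22.5% at 12 h, and 30.6% and 5.54% at 24 h. The 3 fibrinogen genes, which supply the clot itself, rose by at least 2-fold at 4 h and at 12 h. At 4 h the log2 differences of FGA, FGB and FGG were 1.17, 1.09 and 1.20 (adjusted p = 0.013, 0.016 and 0.0098, limma). FGA was at 4133, 14477, 27320.0 and 11651 RPKM in Cont at 0, 4, 12 and 24 h, at 14486, 23125, 26459 and 16190.0 in BA and at 9983, 20169, 26472 and 15685 in BF, highest at 12 h in each arm, when HRG, PLG and KLKB1 were lowest. Its log2 difference at 12 h was 1.67 ± 0.31 (SE), adjusted p = 0.0045 (limma), and those of FGB and FGG were 1.71 and 1.72. THBD (thrombomodulin) and PROCR (the protein C receptor), which activate protein C on endothelium, rose at 4 h by 2.29 and 1.77 (adjusted p = 4.8e-04 and 0.003), while PROC itself fell. PLAUR, the receptor of urokinase, rose at 4 h by 1.37 (adjusted p = 0.0073, limma). At 24 h PROCR was the 1 gene of this list past 2-fold (1.24, adjusted p = 0.018, limma). At 12 h the protease inhibitor A2M, an acute phase gene in the rat, rose by 4.46 (adjusted p = 0.026), from 7.61 to 4637 RPKM in Cont, 1892 to 9188 in BA and 1772 to 7272 in BF. Without the Cont arm the difference of A2M was 2.16 (adjusted p = 0.022, limma). At the same time CPN1 (the 1 gene of this list that fell by 2-fold, named after its value was seen), a carboxypeptidase that inactivates kinins and anaphylatoxins, fell by 1.02 (adjusted p = 0.0023).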

How the data were processed

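Whole liver RNA of male rats was sequenced from 3 arms at 4 times. The authors prepared poly(A) libraries, made an RPKM file from each of 2 runs per arm and time and combined both into the 1 column of RPKM values they deposited. The submitters' processing notes name CASAVA, Bowtie 0.12.2 and the builds rn4 and mm8. The study's supplement describes each column as an average of RPKM over 4 animals. The annotation, and the weight given to the single-rat and pooled runs in that average, are not given in the sources used here. The table lists 14692 genes, of which 1 had no value. Because RPKM is relative to the library's size, a very abundant transcript takes from all others. The depth in reads is unknown, and no interval that needs it is given.

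Groups were taken from the sample titles. Values were analysed as log2(RPKM + 1) for 8459 genes (mean of 1 RPKM or more), with limma 3.58.1 (R 4.3.3) in an additive fit of time and arm, eBayes with an intensity trend and Benjamini-Hochberg adjustment. The interaction of time and arm serves as the error. For counts past 2-fold, a log2 difference of 1 was required. The fit was checked on simulated data with the same independent noise in every gene, no effect of arm and changes at 24 h only. Those data held no shift of scale between columns and no course particular to an arm, so the check does not cover these. Python 3.11.15, pandas 2.3.3 and matplotlib 3.10.9 were used for ratios and plots, and promoters were from RefSeq (GRCr8).

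Named with all values were the members called in any of the 6 fits (adjusted p below 0.05, and 2-fold between times) and the one of highest mean in each role. Other members are given by range, and up to 4 called genes of the other pathway list were named per comparison. One gene that this rule would name is not reported here. C4BPA, SERPING1, C6, C8G, C4BPB and the genes singled out in other comparisons were added after their values were seen. The members and lists were chosen with earlier results of these data known. Alternatives were another pseudocount (0.1 RPKM), no filter, columns rescaled to the same median gene or to the total without the 10 most abundant genes, no block, each arm or time left out, and the BF column at 12 h left out. Leaving out the BA column at 4 h was chosen after seeing the data.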

Additional observations from a re-analysis of the deposited data

Results flagged for a closer look

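C6, a component of the membrane attack complex, moved in opposite directions between the arms from 0 to 12 h. Its log2 ratio of 12 h to 0 h was 0.77 in Cont, -0.62 in BA and -0.67 in BF, a difference between sham and fistula arms that was not tested, since each ratio rests on 1 column a side. C6 was at 110.2, 71.2, 188 and 181 RPKM in Cont at 0, 4, 12 and 24 h, at 179, 169, 116 and 138 in BA and at 190.2, 126, 119.6 and 198 in BF. It was the 1 member with such opposite moves of at least 0.5 on the log2 scale in all 3 arms.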

How the results depend on the processing

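Counts of members depended on the scale of the columns and on single arms. Members that fell at 4 h, 17 as reported, were 6 with columns rescaled to the same median gene, 8 with columns rescaled to the total without the 10 most abundant genes, 8 with no block, 10 without the BA column at 4 h and 4 to 11 with an arm left out. Members that fell at 12 h, 21 as reported, were 13 under the rescaling without the 10 most abundant genes, 13 with no block and 10 to 11 with an arm left out, and those past 2-fold, 5 as reported, were 3 with the same median gene and 2 without the 10 most abundant genes. The 2 that rose at 12 h were 1 with no filter, 1 with no block and 0 to 1 with an arm left out. At 24 h, 10 fell as reported, 25 with the same median gene and 1 to 8 with an arm left out. Past 2-fold at 24 h there were 0 as reported, 4 with the same median gene and 0 to 1 with an arm left out, and the 1 that rose was 0 with the same median gene, 2 without the 10 most abundant genes, 2 without the BA column at 4 h and 0 to 1 with an arm left out. For BF against Cont the 4 members were 2 with a pseudocount of 0.1 RPKM, 2 without the BA column at 4 h, and 0 with no filter, without the BF column at 12 h, with no block and with any one time left out. Between single columns at 12 and 0 h, the members 2-fold lower were 3 in Cont and 3 in BA under both rescalings, and 1 in BF without the 10 most abundant genes. The other 110 of 153 counts stayed within 1.5 times. They include counts that were 0 under every setting, as for BA against Cont and for BF against BA. Of 104 values for single genes 62 kept their call, 42 lost it and none reversed. Causes were not tested. No paired analysis by replicate number was possible because each arm and time has 1 column.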
